A study of Mus musculus with 7 samples.

Results

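The set described here comprised 33 genes, 27 immediate early genes and 6 heat-shock genes, out of 55341 gene names counted in microglia of 5xFAD mice. Members were chosen by name, as genes that cell isolation is known to switch on, and were found in the deposited counts by gene symbol. Microglia (CD11b+CD45low cells, the resident macrophages of the brain) were sorted from 3 grafts and from 4 samples of small cortical pieces near a graft, here called inside graft 1 to 3 and outside graft 1 to 4. All recipients were C57BL/6 mice of the 5xFAD genotype with a labelled age of 14 weeks, and tissue was taken 4 weeks after injection of embryonic neuronal cells from wild-type (WT) donors. 5xFAD mice carry mutant human amyloid precursor protein and presenilin transgenes under a neuron-specific Thy1 promoter, so that the host neurons, but not the WT graft neurons, make the transgenic Aβ. Both groups shared the transgenes, the anaesthesia, the perfusion with cold PBS, the collection on ice and the sort, and no sample without the sort was analysed here. Nothing states that the libraries came from separate mice, and the P values measure only the spread between these samples.

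Immediate early genes are transcribed within minutes of a stimulus without new protein synthesis, because their activators (serum response factor, CREB and NF-κB) are already present in the cell. Their products are transcription factors such as the AP-1 subunits and Egr proteins, and feedback regulators that shorten the response, such as phosphatases and mRNA-decay factors. Heat-shock genes encode chaperones under the control of heat-shock factor, and both classes respond to enzymatic or mechanical dissociation of tissue, which makes them a common sign of handling in sorted microglia.

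Total counts ran from 18644807 (outside graft 1) to 25882122 (inside graft 1), and the members took between 0.276 and 0.316% of all counts in a library. The voomWithQualityWeights procedure gave outside graft 1 the lowest weight, 0.448, and outside graft 4 the highest, 1.76. All 12 microglia markers were detected in both groups, with a summed level of 46016 to 53284 CPM (read counts relative to the library's total, TMM-scaled) inside and 52214 to 58415 CPM outside the graft. Of the 12, 10 had a log2 fold change below 0, 5 of them at an unadjusted P below 0.05 in edgeR, with P2ry12 at -0.46. The 2 others, Itgam (0.05) and Ptprc (0.36), were above 0. Ptprc ran from 530 to 567 CPM inside and from 353 to 477 CPM outside (edgeR unadjusted P = 0.0155). The neutrophil markers separated the groups as a sum, while 4 of the 8 lay wholly higher inside on their own. Without Csf3r, which stood between 687 and 790.4 CPM in every library, the other 7 summed to 6493, 650.0 and 13627 CPM inside and to 0.640, 0.311, 297 and 19.0 CPM outside, although Ly6G and Ly6C stood among the lineage markers of the gate that the study's methods describe. In bulk samples, fewer cells of a type and less RNA per cell cannot be told apart.

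The members spanned a wide range of levels in these microglia. A mean over the 7 libraries of 100 or more CPM was reached by 10 members, 10 to 100 CPM by 10, 1 to 10 CPM by 9 and less than 1 CPM by 4. Per kilobase of exon, a scale that takes gene length into account, Hsp90ab1 (165 CPM per kb), Rhob (165), Hspa8 (93.2), Btg2 (80.3), Nfkbia (76.2) and Junb (75.5) led. Hsp90ab1 stood above 98.7% of the 15257 genes tested. Immediate early members stood at both ends of this range: Jun had 53.6 CPM per kb and Zfp36 47.8, above 95.1 and 94.4% of tested genes, while Egr1 had 3.29 and Fos 0.902 CPM per kb, above 44.7 and 21.6%. On this scale, Hspa1a, Hspa1b, Hsp90aa1 and Hspa8 may be understated, since reads with more than 1 alignment were not counted. Of their 75-base windows, 61.7, 55.8, 42.8 and 33.0% recurred in other genes, against 0.537% for Hsp90ab1. Reads of Jund that overlap an antisense gene may also be missing from its counts. Fosb, with 0 to 7 counts in a library, and Jund, with 0 or 1 count, fell below the filter on low counts and were not tested. The 31 other members passed it. The plot of members by library shows this range, with the groups interleaved in most rows.

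**Figure D1:**
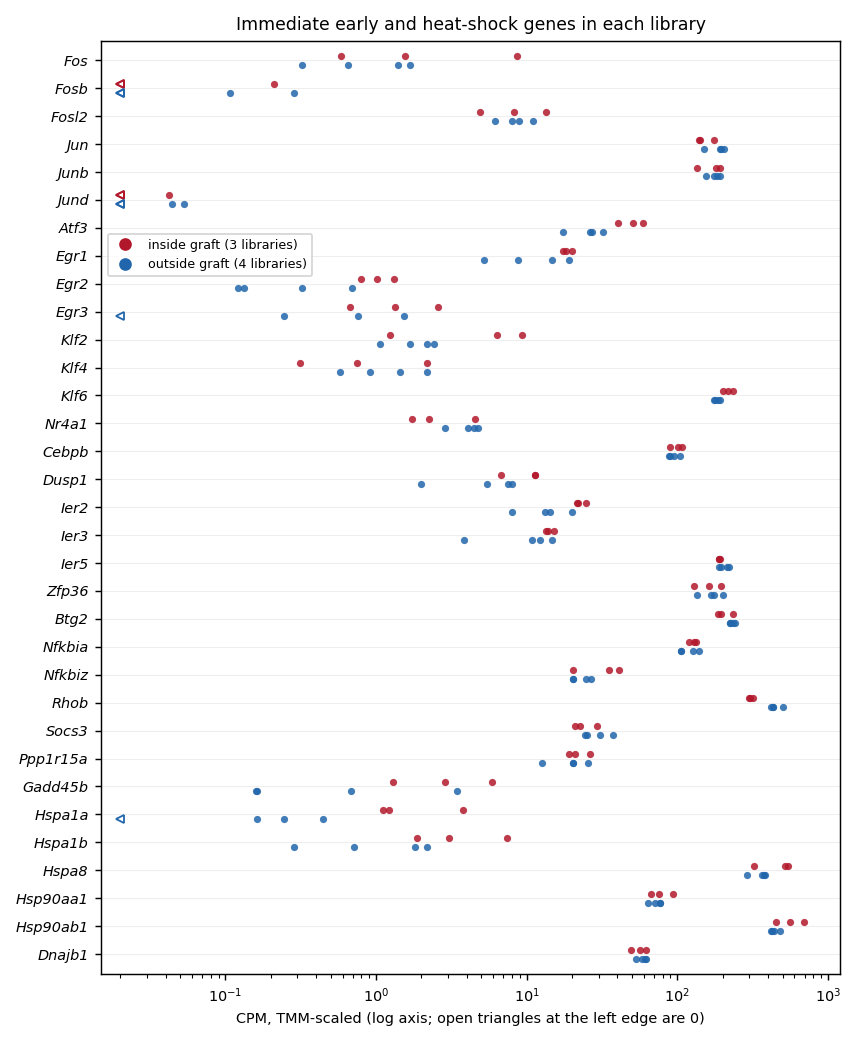
Each row is 1 of the 33 members and each point 1 library, with TMM-scaled CPM on a log axis; red points are the 3 inside graft libraries, blue points the 4 outside graft libraries, and open triangles at the left edge are values of 0. The red points lie wholly to the left of the blue points for Rhob and wholly to the right for Atf3, Egr2, Klf6, Ier2 and Hspa1a.

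At an adjusted P below 0.05, edgeR's quasi-likelihood test called 0 members and 15 genes in all, 0.0983% of those tested. With limma's voomWithQualityWeights, the test of the study, 1 member passed at 0.05, Rhob, which was lower inside the graft. The background was 0.492% of genes called in either direction and 0.059% called lower. The study itself used an adjusted P below 0.01, at which this test called 0 members. The DESeq2 Wald test called 2 members at an adjusted P below 0.05, Atf3 (adjusted P = 0.00381) and Rhob (adjusted P = 0.000139). It called 2.75% of all genes (2.1% higher and 0.655% lower). At an unadjusted P below 0.05, edgeR gave 8 of 31 members, 7 higher (Atf3, Klf2, Klf6, Ier2, Hspa1a, Hspa1b and Hsp90ab1) and 1 lower (Rhob), where 9.55% of all genes did so, 5.76% higher and 3.79% lower. voomWithQualityWeights gave 10 at that level, 8 higher and 2 lower, against 12.2% of all genes (7.47% higher and 4.71% lower). In fits without 1 library, the edgeR count at an unadjusted P below 0.05 ran from 5 members without inside graft 1 or outside graft 3 to 8 without outside graft 2. The count was 7 without inside graft 2 and 6 without inside graft 3, outside graft 1 or outside graft 4. Only Atf3 and Rhob were among these members in all 7 of these fits. Of all genes, 7.72% (without inside graft 3) to 10.3% (without outside graft 1) had an unadjusted P below 0.05 in the same fits. With voomWithQualityWeights, Atf3, Rhob and Hspa1a had an unadjusted P below 0.05 in all 7 fits without 1 library. The share of all genes there ran from 8.22% (without outside graft 3) to 13.3% (without outside graft 2).

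The groups did not overlap for 6 members: Atf3, Egr2, Klf6, Ier2 and Hspa1a lay higher inside, and Rhob lay lower inside. Among all genes tested, 5.65% lay wholly higher and 5.02% wholly lower inside the graft. As a ratio of inside to outside the graft in edgeR, the median log2 fold change was 0.25 over the 31 members and -0.0064 over all genes, and 21 of 31 members, against 49.2% of all genes, had a value above 0. The members' median was 0.12 with at least 10 counts required in every library, which left 24 members, and 0.17 without a filter. For 16 of the 31 members the 95% interval stayed between log2 values of -1 and 1, against 55.1% of all genes. The remaining 15, most of them members with low counts, had intervals that reached a 2-fold difference in at least 1 direction.

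**Figure D2:**
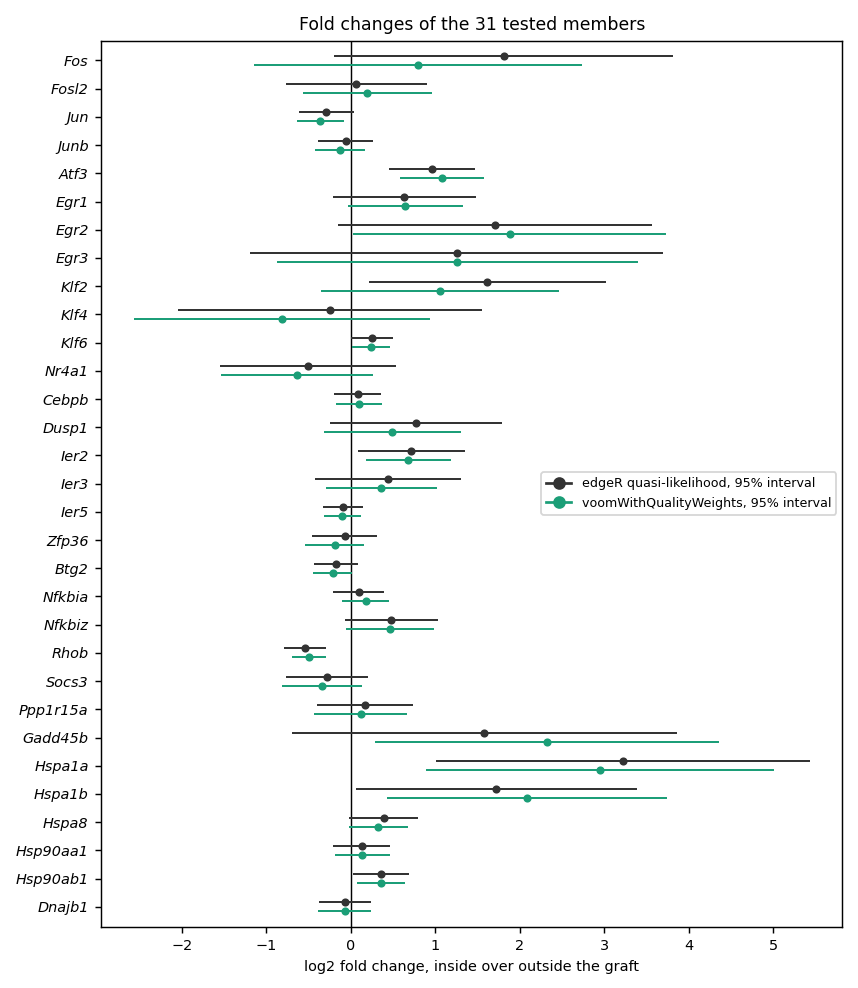
Log2 ratio of inside to outside the graft for the 31 tested members (rows) with 95% intervals from edgeR (grey) and voomWithQualityWeights (green). In both fits, the interval of Rhob lies below 0 and those of Atf3, Klf6, Ier2, Hspa1a, Hspa1b and Hsp90ab1 lie above 0. The intervals are not adjusted for the number of genes tested. Those of Fos, Egr2, Egr3, Klf4, Gadd45b, Hspa1a and Hspa1b are several log2 units wide.

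Among the AP-1 genes, which encode the basic leucine zipper proteins that pair to form this dimeric factor, Atf3 differed most between the groups relative to its error. Atf3 (a stress-induced repressor of the ATF/CREB family; chr1:191170296-191218039, minus strand, GRCm38) was measured at 50.4, 59.5 and 40.5 CPM inside and 27.2, 32.2, 17.3 and 26.2 CPM outside the graft. Each inside library lay above each outside library. The group means were 50.1 ± 9.50 (SD, n = 3) and 25.8 ± 6.20 CPM (SD, n = 4). The log2 fold change was 0.96 (SE 0.22), with adjusted P = 0.126 in edgeR and 0.0564 in voomWithQualityWeights, and with any 1 library left out it ran from 0.81 to 1.09 in edgeR. Inside graft 2 had the highest Atf3 level. Its neutrophil marker sum, 650.0 CPM, was the lowest of the inside libraries but above that of every outside library (at most 297 CPM). The part of those markers in the Atf3 value was not tested. The 250 bases before the start of Atf3 that RefSeq gives are printed (GRCm38.p6, chr1:191183334-191183583, minus strand) because Atf3 was among the members called by DESeq2. That start lies within the gene interval above because a longer annotated transcript starts upstream. Capitals mark a variant of the cAMP response element, TTACGTCA, added to the motifs after the windows had been read. Of all promoter windows of this length, 0.447% held it on either strand.
Atf3: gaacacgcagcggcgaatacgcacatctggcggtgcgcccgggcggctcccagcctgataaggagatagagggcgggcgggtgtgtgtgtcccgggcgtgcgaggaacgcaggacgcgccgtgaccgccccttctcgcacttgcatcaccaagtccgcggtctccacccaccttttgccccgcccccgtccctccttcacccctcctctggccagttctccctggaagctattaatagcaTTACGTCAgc

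Jun, the subunit with which Fos proteins pair, was measured at 140.0, 175 and 140.5 CPM inside and 149.7, 193, 204 and 196 CPM outside the graft. The lowest outside library lay between the inside libraries, so the groups overlapped. Its log2 fold change of -0.29 (SE 0.14) had unadjusted P = 0.0662 in edgeR, and voomWithQualityWeights gave -0.36 (SE 0.12) with unadjusted P = 0.0118 and adjusted P = 0.237. Junb, the most abundant AP-1 member per kilobase, stood at 135, 182 and 192 CPM inside and 155, 193, 183 and 176 CPM outside the graft. These groups overlapped and the log2 fold change was -0.06 (SE 0.14, 95% interval -0.38 to 0.26, edgeR adjusted P = 0.948). Some reads on Jun and Junb may be left out of the counts where they overlap the opposite-strand neighbours Junos and Prdx2. Strand was not used in counting, and each read was counted for at most 1 gene. Of the 75-base windows of Jun and Junb, 5.07 and 4.74%, respectively, also occurred in a transcript of the neighbour.

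Fos, the prototype of this class, was measured at 0.589, 1.55 and 8.64 CPM inside and 0.320, 1.69, 1.41 and 0.648 CPM outside the graft, from 6 to 205 counts. Inside graft 3 stood above all other libraries, and the other 2 inside libraries lay within the range of the outside libraries. The log2 fold change of 1.81 (SE 0.90, edgeR adjusted P = 0.572) became 0.07 without inside graft 3, which was also the library with the highest neutrophil marker sum. The part of those markers in the Fos value was not tested. Fosl2, a Fos relative, ran from 4.93 to 13.5 CPM inside and from 6.20 to 10.9 CPM outside, with a log2 fold change of 0.07 that ranged from -0.36 without inside graft 1 to 0.36 without inside graft 3. Fosb reached at most 0.283 CPM. For Jund, 52.6% of the exon bases overlap the antisense gene Gm11175, and reads that overlap both genes may be left out of the counts. Gm11175 had 0 counts, and Jund itself had 0 or 1 count in each library.

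**Figure D3:**
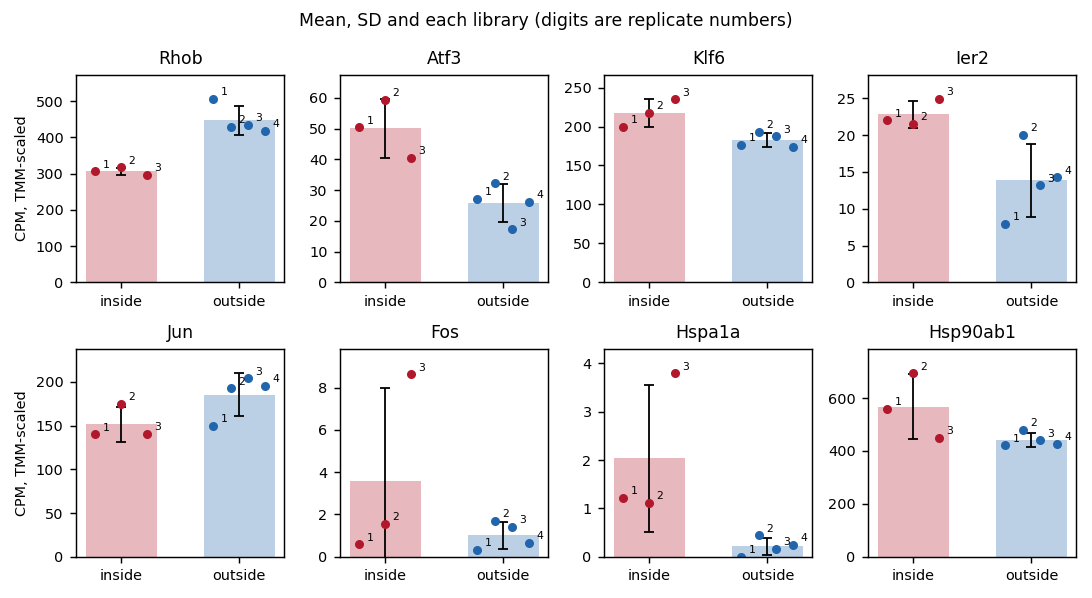
TMM-scaled CPM of 8 members; bars are group means, error bars are SD (cut at 0 for Fos), and points are libraries with their replicate numbers. Rhob, Atf3, Klf6, Ier2 and Hspa1a show no overlap between groups, while the Fos mean inside the graft rests on replicate 3 at 8.64 CPM.

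Of the 8 zinc-finger and other nuclear transcription factor members, 6 had a log2 fold change above 0 and 2 below. Klf6, a Krüppel-like factor of activated macrophages, was measured at 199.9, 218 and 235 CPM inside and 177, 194, 187 and 174 CPM outside the graft. The inside values all lay above the outside values, by a small margin, and the log2 fold change was 0.25 (SE 0.10), with unadjusted P = 0.0369 and adjusted P = 0.473 in edgeR. Its interval, 0.02 to 0.48, lay below a 2-fold difference. Klf2, a related factor that restrains inflammatory gene expression in myeloid cells, stood at 6.40, 1.24 and 9.35 CPM inside and 1.07, 1.69, 2.17 and 2.43 CPM outside. Inside grafts 1 and 3 were high, and inside graft 2 lay within the outside range, and the log2 fold change was 1.62 (SE 0.63; edgeR unadjusted P = 0.0270, adjusted P = 0.420) and 1.05 (SE 0.64; unadjusted P = 0.126) with voomWithQualityWeights. The edgeR value of Klf2 was 1.05 without inside graft 3.

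Egr1, a zinc-finger factor induced through serum response factor, was measured at 17.5, 20.0 and 18.1 CPM inside and 5.23, 19.1, 8.73 and 14.7 CPM outside the graft. The inside libraries lay close together and outside graft 2 lay among them. Its log2 fold change was 0.64 (SE 0.38, 95% interval -0.20 to 1.47, edgeR adjusted P = 0.666). Egr2 was low, at 1.02, 0.799 and 1.31 CPM inside and 0.320, 0.133, 0.121 and 0.688 CPM outside, from 3 to 31 counts. Although the groups did not overlap, the log2 fold change of 1.70 had an SE of 0.83 and an edgeR adjusted P of 0.566 (voomWithQualityWeights 1.88, SE 0.84, unadjusted P = 0.0459, adjusted P = 0.396). Egr3 ran from 0 to 2.57 CPM over all libraries, with 0 counts in outside graft 1, where a count of 0 allows up to 0.160 CPM (3 counts).

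Cebpb, a leucine zipper factor of inflammatory macrophages and the most abundant member of this role per kilobase, stood at 89.7, 108 and 101 CPM inside and 94.98, 104, 88.2 and 89.8 CPM outside the graft. The groups overlapped and the log2 fold change was 0.08 (SE 0.12, 95% interval -0.19 to 0.35, edgeR adjusted P = 0.905). On the opposite strand, Tmem189 overlaps 20.7% of the Cebpb exon bases, and reads that overlap both genes may be left out of the counts. Nr4a1, an orphan nuclear receptor, ran from 1.73 to 4.51 CPM inside and from 2.88 to 4.75 CPM outside, and Klf4 from 0.311 to 2.19 and from 0.578 to 2.19 CPM. Both overlapped between groups, with log2 fold changes of -0.51 (SE 0.46) and -0.24 (SE 0.80).

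Rhob was the member with the smallest P value in both tests. It encodes a small GTPase of endosomes and the actin cytoskeleton and, unlike its relatives RhoA and RhoC, is transcribed as an immediate early gene (chr12:8497661-8500009, minus strand, GRCm38, 1 exon of 2349 bases). The level was 306, 317 and 297 CPM inside and 505, 429, 435 and 418 CPM outside the graft, from 7062 to 10807 counts. Each inside library lay below each outside library, and the inside libraries differed among themselves by a coefficient of variation of only 3.16%. The means were 307 ± 9.71 (SD, n = 3) and 447 ± 39.5 CPM (SD, n = 4). The log2 fold change was -0.54 (SE 0.11, 95% interval -0.78 to -0.30, adjusted P = 0.0919) in edgeR and -0.50 (SE 0.09, adjusted P = 0.0411) in voomWithQualityWeights. With 1 library left out, the edgeR value ran from -0.57 to -0.48, but the adjusted P in voomWithQualityWeights stayed below 0.05 only without inside graft 2 (0.0391) and was 0.0913 without inside graft 1, 0.0829 without inside graft 3, 0.0606 and 0.0608 without outside grafts 1 and 2, 0.222 without outside graft 3 and 0.119 without outside graft 4. The difference was present in all 3 inside libraries, whose neutrophil marker sums ranged from 650.0 to 13627 CPM. Most microglia markers were also lower inside the graft, although Ptprc was higher. The part of neutrophil and microglia markers in the Rhob value was not tested. The promoter window of Rhob (RefSeq, GRCm38.p6, chr12:8500010-8500259, minus strand) is shown because Rhob was the 1 member that passed voomWithQualityWeights; capitals mark CCAAT boxes on the plus (CCAAT) and minus (ATTGG) strand of the window, which 33.8% of all windows held.
Rhob: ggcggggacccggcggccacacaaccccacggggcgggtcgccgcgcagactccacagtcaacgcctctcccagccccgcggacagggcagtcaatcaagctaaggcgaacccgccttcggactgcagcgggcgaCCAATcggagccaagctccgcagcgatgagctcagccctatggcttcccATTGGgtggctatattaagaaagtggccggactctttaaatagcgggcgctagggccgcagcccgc

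Ier2, a short-lived nuclear protein, was measured at 22.02, 21.6 and 24.9 CPM inside and 8.004, 20.0, 13.2 and 14.3 CPM outside the graft. The inside libraries all lay higher, with outside graft 2 close beneath them, and the log2 fold change was 0.72 (SE 0.28; unadjusted P = 0.0283, adjusted P = 0.427, edgeR). Gadd45b, a stress sensor that acts on p38 and JNK signalling, stood at 1.30, 2.88 and 5.90 CPM inside and 0.160, 3.47, 0.684 and 0.162 CPM outside. Outside graft 2 lay above 2 of the inside libraries, and the log2 fold change was 1.58 (SE 1.02, unadjusted P = 0.152) in edgeR and 2.32 (SE 0.92, unadjusted P = 0.0285, adjusted P = 0.333) in voomWithQualityWeights. The edgeR value of Gadd45b became 3.29 without outside graft 2 and 0.90 without inside graft 3.

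The other feedback and signalling members overlapped between groups and had an unadjusted P above 0.05 in both tests. Dusp1, a phosphatase that switches off MAP kinases, ran from 6.79 to 11.3 CPM inside and from 1.97 to 7.98 CPM outside. Zfp36, which targets cytokine mRNA for decay, ran from 128 to 194 and from 135 to 199.8 CPM. The antiproliferative gene Btg2 ran from 186 to 233 and from 225 to 243 CPM. Nfkbia, the inhibitor that holds NF-κB in the cytoplasm, ran from 119 to 133 and from 105 to 139 CPM, and its nuclear relative Nfkbiz from 20.4 to 40.8 and from 20.2 to 26.9 CPM. Socs3, which inhibits JAK signalling, ran from 20.9 to 29.4 and from 24.3 to 37.7 CPM. Ppp1r15a, which reverses the stress-induced block of translation, ran from 19.1 to 26.2 and from 12.6 to 25.4 CPM. Ier3 ran from 13.4 to 15.2 and from 3.84 to 14.8 CPM, and Ier5 from 189.5 to 193 and from 189.6 to 221 CPM. Of these 9 genes, 5 had a log2 fold change above 0 (Dusp1, Ier3, Nfkbia, Nfkbiz and Ppp1r15a, at most 0.77) and 4 below 0 (Ier5, Zfp36, Btg2 and Socs3, at least -0.28).

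Of the 6 heat-shock members, 5 had a log2 fold change above 0, and their median was 0.37, against 0.17 for the 25 tested immediate early members. It was 0.23 without inside graft 2 and 0.54 without inside graft 3. Hspa1a, a strongly stress-inducible Hsp70 (chr17:34969190-34972156, minus strand, GRCm38), had 31, 25 and 90 counts inside and 0, 10, 4 and 6 counts outside the graft. These counts correspond to 1.22, 1.11 and 3.79 CPM inside and 0, 0.445, 0.161 and 0.243 CPM outside. Each inside library lay above each outside library, all at low levels, and the 0 in outside graft 1 allows up to 0.160 CPM. The log2 fold change was 3.22 (SE 0.99; unadjusted P = 0.00859, adjusted P = 0.268, edgeR). Its twin Hspa1b (chr17:34956436-34959238, minus strand) stood at 3.06, 1.86 and 7.41 CPM inside and 2.19, 0.712, 1.81 and 0.283 CPM outside. Inside graft 2 lay within the outside range, and the log2 fold change was 1.72 (SE 0.74; unadjusted P = 0.0427, adjusted P = 0.497). Without inside graft 3 it was 0.98, and the unadjusted P of Hspa1b was below 0.05 in 3 of the 7 edgeR fits without 1 library.

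Many reads of these twins cannot be told apart. Of all 75-base windows of their transcripts, 61.7% for Hspa1a and 55.8% for Hspa1b also occurred in another gene, most often in the twin, and the counting dropped reads with more than 1 alignment. With both genes summed, the log2 fold change was 2.07 (SE 0.62, 95% interval 0.69 to 3.46, edgeR adjusted P = 0.250). Their promoter windows are printed to show how alike the pair is also before the start: of 250 bases, 247 were identical (98.8%), and the 3 differences, counted from 1 at the 5′ end with the Hspa1a base first, were C44T, T47C and T249G. Capitals mark, from 5′ to 3′, a match to an NF-κB site, a heat-shock element of 2 units (GAANNTTC, held by 6.69% of all windows) and a CCAAT box on the minus strand (RefSeq, GRCm38.p6, chr17:34972157-34972406 and chr17:34959239-34959488, minus strand).
Hspa1a: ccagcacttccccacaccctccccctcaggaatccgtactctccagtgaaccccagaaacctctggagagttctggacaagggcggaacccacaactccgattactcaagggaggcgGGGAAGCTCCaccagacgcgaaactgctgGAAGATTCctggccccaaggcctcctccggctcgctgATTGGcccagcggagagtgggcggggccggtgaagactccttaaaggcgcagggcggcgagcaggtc
Hspa1b: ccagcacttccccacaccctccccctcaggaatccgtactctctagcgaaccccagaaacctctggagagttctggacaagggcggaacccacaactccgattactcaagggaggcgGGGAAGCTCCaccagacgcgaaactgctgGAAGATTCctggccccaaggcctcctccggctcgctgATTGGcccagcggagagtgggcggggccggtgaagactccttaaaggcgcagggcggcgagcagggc

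Hsp90ab1, the constitutive cytosolic Hsp90 and the most abundant member per kilobase, was measured at 560.2, 693 and 450.1 CPM inside and 421, 479.8, 440.5 and 428 CPM outside the graft. Inside grafts 1 and 2 were high, while inside graft 3 lay within the outside range. Hsp90ab1 had a log2 fold change of 0.36 (SE 0.14, 95% interval 0.04 to 0.68; unadjusted P = 0.0298, adjusted P = 0.431, edgeR), which became 0.19 without inside graft 2. Hspa8, the constitutive Hsc70, had the same arrangement, with 522 and 543 CPM in inside grafts 1 and 2, 325 CPM in inside graft 3 and 290.1 to 385 CPM outside. Its log2 fold change was 0.39 (SE 0.18, edgeR unadjusted P = 0.0561). For Hspa8, 33.0% of windows recurred in 14 other genes, and for Hsp90aa1, the inducible Hsp90, 42.8% recurred in 3 genes. Hsp90aa1 ran from 67.1 to 93.3 CPM inside and from 63.9 to 77.3 CPM outside (log2 fold change 0.13, SE 0.15), and the Hsp70 cochaperone Dnajb1 from 49.6 to 61.8 and from 53.0 to 61.9 CPM (-0.07, SE 0.13). Hsp90ab1 and Hspa8 were thus highest in inside grafts 1 and 2, and the Hspa1 twins in inside graft 3.

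Summed by role, the AP-1 members reached 384 ± 43.1 CPM inside (SD, n = 3) and 398 ± 37.3 CPM outside the graft (SD, n = 4). The zinc-finger and nuclear factor sums were 348 ± 25.8 and 297 ± 18.5 CPM, and the heat-shock sums 1172 ± 239 and 929 ± 59.2 CPM. Libraries of the 2 groups overlapped in all 3 of these sums. The feedback and signalling sum was 1119.7 ± 46.4 inside and 1275 ± 11.3 CPM outside, with no overlap. Without Rhob it was 813 ± 43.1 and 828 ± 37.0 CPM, with overlap.

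**Figure D4:**
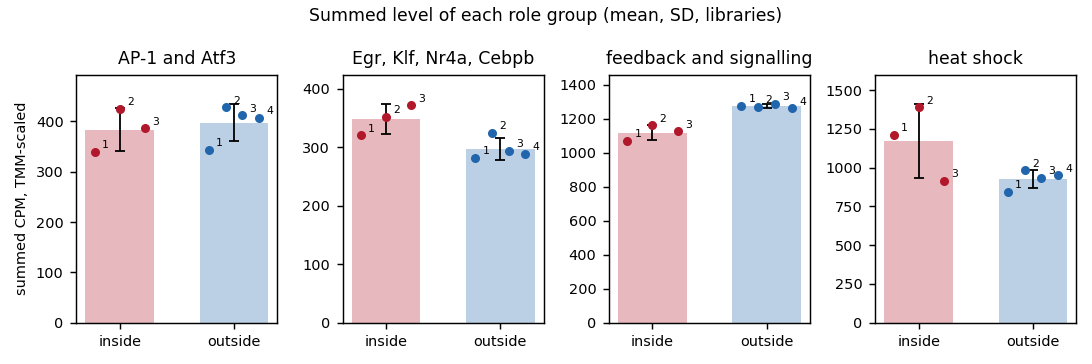
Summed TMM-scaled CPM of the members of each role; bars are group means, error bars are SD, and points are libraries with their replicate numbers. Only the feedback and signalling sum separates the groups (1119.7 against 1275 CPM), and the heat-shock sum of inside graft 3, 916 CPM, lies within the outside range.

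The inside libraries differed in the levels of other cell types' markers. The neutrophil marker sum, without Csf3r, was highest in inside graft 3, then inside graft 1, then inside graft 2. All 8 neutrophil markers had a log2 fold change above 0, 5 had an unadjusted P below 0.05 in edgeR and 4 lay wholly higher inside. Ngp, Mmp9, Cxcr2 and Retnlg were at 0 in outside grafts 1 and 2, and Cxcr2 and Retnlg also in inside graft 2. Monocyte markers summed to 716, 84.8 and 1471 CPM inside and 6.78 to 33.9 CPM outside. Chil3 alone reached 587, 67.6 and 1189 CPM inside. Of the 8 monocyte markers, 3 lay wholly higher inside, and Ccr2 in inside graft 2 (4.26 CPM) lay within the outside range (4.06 to 18.1 CPM). Border macrophage markers summed to 114, 18.0 and 122 CPM inside and 6.32 to 17.8 CPM outside. Cycling genes summed to 77.1 to 114 CPM inside and 6.08 to 34.6 CPM outside. The same order of inside libraries (3, then 1, then 2) was seen in 7 of 31 members, Egr2, Klf2, Klf4, Ier2, Btg2, Hspa1a and Hspa1b, or 22.6%. This share is near the 17.5% of all genes tested. The part of these markers' cells in the values of the 7 members was not tested.

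**Figure D5:**
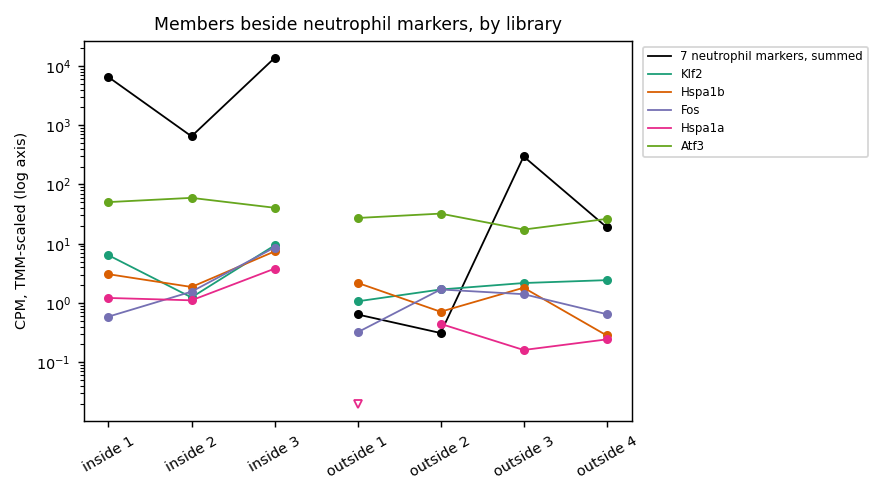
TMM-scaled CPM on a log axis, by library, of 5 members and of 7 neutrophil markers summed (black); the open triangle is a value of 0. Klf2, Hspa1b and Hspa1a follow the order of the neutrophil markers among the inside libraries, and Fos and Atf3 do not. That order was seen in 7 of 31 members (22.6%), near the 17.5% of all genes tested. Atf3 is highest, at 59.5 CPM, in inside graft 2, where the markers sum to 650.0 CPM, against at most 297 CPM outside. The part of the markers' cells in these values was not tested.

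Inside graft 2 had the lowest sums for these markers among the inside libraries. On its own, it lay above all 4 outside libraries in 13 of 31 members and below all 4 in 5, where 22.5 and 20.7% of all genes did so. The 13 were Atf3, Egr1, Egr2, Klf6, Cebpb, Dusp1, Ier2, Nfkbiz, Ppp1r15a, Hspa1a, Hspa8, Hsp90aa1 and Hsp90ab1, and the 5 were Klf4, Nr4a1, Btg2, Rhob and Socs3. The corresponding numbers were 12 and 6 in inside graft 1 (22.1 and 20.1% of all genes) and 12 and 6 in inside graft 3 (23.5 and 23.8%). In all 3 inside libraries, Atf3, Egr2, Klf6, Ier2 and Hspa1a lay above the outside range and Rhob lay below it.

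Among the outside libraries, outside graft 1 stood lowest in 17 of 31 members (54.8%), where it stood lowest in 35.5% of all genes. It had the smallest total count and the smallest quality weight. Egr1, Dusp1, Ier2 and Ier3 were lowest there, at 5.23, 1.97, 8.004 and 3.84 CPM. Without it, the log2 fold change of Ier2 was 0.53, that of Egr1 0.39, that of Ier3 0.17 and that of Dusp1 0.49. Outside graft 1 was, in contrast, the highest outside library for Rhob, at 505 CPM, and without it the log2 fold change of Rhob was -0.48.

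Genes of the same pathways that are no members were also examined in 4 lists. Of 37 further immediate early genes, 29 were tested, 18 with a log2 fold change above 0 and 11 below, with a median of 0.06. In edgeR, 0 of them had an adjusted P below 0.05 and 3 an unadjusted P below 0.05, where 9.55% of all genes did so. These were Bhlhe40 (a basic helix-loop-helix repressor, 1.86) higher and Rgs2 (a regulator of G protein signalling, -0.33) and Cebpd (-0.40) lower inside the graft. Among 24 upstream kinases and factors of the MAP kinase, serum response factor and CREB routes, 2 reached an unadjusted P below 0.05, the stress kinases Mapkapk3 (0.59) and Mapkapk2 (0.30), both higher inside, and the median was -0.03. Of 30 further chaperones and heat-shock regulators, 28 were tested, with a median of 0.03. The Hsp70 exchange factor Bag1 (0.43) was higher and Hspa14 (-0.39) lower at an unadjusted P below 0.05. The counts of 3 of 29, 2 of 24 and 2 of 28 are near the share of 9.55% among all genes. In these lists, voomWithQualityWeights gave 6, 2 and 3 genes at an unadjusted P below 0.05, against 12.2% of all genes, and 0 at an adjusted P below 0.05.

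The fourth list, 22 target genes of NF-κB and cytokines, had 19 tested genes with a median log2 fold change of 0.53, of which 13 had a value above 0. Among the 19, 6 had an unadjusted P below 0.05 in edgeR, all higher inside the graft, where 9.55% of all genes passed in either direction, and 0 had an adjusted P below 0.05. At an unadjusted P below 0.05, voomWithQualityWeights gave 9 higher and 2 lower inside, against 12.2% of all genes, and at an adjusted P below 0.05 it called 2, against 0.492% of all genes. Cd83, an activation marker of myeloid cells, was measured at 424, 513 and 399 CPM inside and 278, 297, 192 and 249 CPM outside (log2 fold change 0.81, SE 0.16; adjusted P = 0.0907 in edgeR and 0.0374 in voomWithQualityWeights). Plaur, the urokinase receptor, stood at 64.0, 66.1 and 53.2 CPM inside and 36.7, 42.9, 28.0 and 30.7 CPM outside (0.82, SE 0.18; adjusted P = 0.105 and 0.0411). The chemokine gene Cxcl10 stood at 23.1, 49.3 and 20.1 CPM inside and 0, 2.85, 2.94 and 3.32 CPM outside (3.74, SE 0.77; adjusted P = 0.0933 and 0.0597). In all 3 genes, each inside library lay above each outside library. Inside graft 2 was the highest library for each of them, and it was the highest inside library for 14 of 31 members (45.2%) and for 34.7% of all genes.

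The 250 bases before the start were available in the RefSeq table for 26 of the 33 members, in 31 windows. No window was available for Egr1, Egr3, Ier2, Nfkbiz, Hspa8, Hsp90aa1 and Hsp90ab1, so the counts below leave these members out. The windows were searched on both strands for letters of known motifs, next to 32851 windows of all genes. The cAMP response element TGACGTCA was found in 3 member windows (9.68%; Btg2, Dusp1 and Ppp1r15a) and in 1.55% of all windows. The CArG box, the site of serum response factor, was found in 5 windows of 2 genes, Egr2 and Zfp36 (16.1% against 1.47%), 4 of which belong to alternative starts of Egr2. Matches to the NF-κB site occurred in 8 windows (25.8% against 7.25%), those of Egr2, Fos, Fosb, Fosl2, Hspa1a, Hspa1b, Ier3 and Nfkbia. The 2-unit heat-shock element occurred in 4 windows (12.9% against 6.69%), those of Fosl2, Hspa1a, Hspa1b and Jun, and CCAAT in 14 (45.2% against 33.8%). Both motifs were added after the windows had been read, so their member shares are no test. The windows of Hspa1a and Hspa1b are 98.8% identical and were counted separately. The AP-1 site TGACTCA (4.46% of all windows) and the heat-shock element of 3 units (GAA, TTC and GAA, each 2 bases apart; 0.466%), which contains the 2-unit letters, were found in 0 member windows. A match shows letters in a window and not a bound factor.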

How the data were processed

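The authors aligned single reads with STAR 2.7.2a to the mouse genome (GRCm38.p6, GENCODE M21). Per the file headers, the deposited counts came from featureCounts 1.6.2 without strand, without reads of more than 1 alignment, and with 1 gene per read. They comprise 7 libraries of cDNA amplified from sorted microglia, with 18644807 to 25882122 counts each. No molecular identifiers were used, so counts can exceed the molecules sampled.

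CPM and fold changes were calculated here in edgeR 4.0.16, with limma 3.58.1 and DESeq2 1.42.0 beside it (R 4.3.3). Genes were filtered by filterByExpr and scaled by TMM. All 15257 genes were fitted together, edgeR (glmQLFTest) and voomWithQualityWeights were read at a Benjamini-Hochberg adjusted P below 0.05, and scripts were tested on simulated data. SEs in edgeR are those implied by the F statistic.

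Members, lists and tests were chosen with earlier results of these data known, and the variant cAMP response element, the 2-unit heat-shock element and the CCAAT box were added to the motifs after the windows had been read. Levels in every library are given for members with an unadjusted P below 0.05 in either test, the most abundant member of each role, and Fos, Jun, Egr1, Hspa1a and Hspa1b. Of each further list, at most 3 genes with the smallest P are named. Alternatives comprised other normalizations, filters, tests and thresholds, each library left out, and a block on the replicate number. The sum of Hspa1a and Hspa1b was added after seeing the data. All pairs of libraries of 1 group differed by more than counting noise.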

Additional observations from a re-analysis of the deposited data

Results flagged for a closer look

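Gadd45b stood apart in 1 outside library: 3.47 CPM in outside graft 2, where the other 3 outside libraries ran from 0.160 to 0.684 CPM. The gap to the nearest library took most of the range of the group. Of 35 values examined in this way, 1 stood out, where chance gives 1.75. Without outside graft 2, the log2 fold change of Gadd45b was 3.29 in edgeR, against 1.58 with all libraries.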

How the results depend on the processing

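The number of members called by edgeR, 0, became 1 with at least 10 counts required in every library (Rhob), 2 without a filter and 2 with DESeq2 (Atf3 and Rhob in both). The 1 member called by voomWithQualityWeights became 2 with the filter at 10 counts (Atf3 and Rhob), 0 with voom without weights, 0 at a threshold of 0.01 and 0 to 1 with a library left out. The deviations of same-numbered libraries from their group means had correlations of -0.043, 0.090 and 0.067, and 2 of 3 inside libraries correlated best with their own number. With so few libraries, these values cannot show whether a shared number marks a shared mouse. A fit of voomWithQualityWeights with a replicate block, possible only without outside graft 4, called 2 members (Atf3 and Rhob). Of all genes, the main edgeR fit called 0.0983%, the main voomWithQualityWeights fit 0.492% and DESeq2 2.75%. The shares of all genes called under the other settings are not given here. Leaving out a library gave 6 to 10 members without overlap, 10 without inside graft 3 or outside graft 2, where the share of all genes without overlap rose too, from 5.65% higher and 5.02% lower inside to 9.52 and 8.01% and to 8.70 and 7.995%. Heat-shock medians ran from 0.23 to 0.54. The median of all members was 0.12 with the filter at 10 counts and 0.17 without a filter. Other normalizations changed none of these counts beyond 1.5 times.

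Of 405 fold changes under alternatives, 11 changed sign, in 6 members that were not called. With the block these were Fosl2 (-0.041) and Zfp36 (0.0057). With a library left out, values ran from -0.36 to 0.36 for Fosl2, -0.16 to 0.082 for Junb, -1.27 to 0.19 for Klf4, -0.23 to 0.069 for Zfp36, -0.010 to 0.23 for Hsp90aa1 and -0.15 to 0.016 for Dnajb1. The causes were not tested. Egr2, Hspa1a, Fosb and Jund had means under 1 CPM, and at this depth their values rest on at most 31, 90, 7 and 1 counts in a library. Reads shared with other genes were also left out for Hspa1a, and Jund shares exon bases with an antisense gene, so depth and counting cannot be told apart for these 2.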
